A study of Mus musculus with 8 samples.

Results

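The miRNAs described here are mature microRNAs cut from hairpins that lie inside genes of energy and lipid metabolism: both arms of miR-378a (mmu-miR-378a-3p and mmu-miR-378a-5p), from the gene Ppargc1b, and mmu-miR-103-3p and mmu-miR-107-3p, from the Pank genes. They were chosen by name from 5 names, and mmu-miR-33-5p, whose hairpin lies in the sterol regulator gene Srebf2, was not analysed here. The 4 others were found among 443 mature sequences counted in mouse liver. The mice were males of the inbred strain C57BL/6J, aged 10 to 11 weeks. The HFrD group, 4 samples that the labels call a model of nonalcoholic fatty liver disease, ate a high-fructose diet for 2 weeks, of whose energy 70% was carbohydrate, 20% protein and 10% fat. The chow group, 4 samples, ate a normal diet for the same time, and the makeup of that diet is not stated in the labels, so fructose and other dietary differences cannot be told apart. Nothing in the labels says that each sample came from its own mouse, so the spread behind the p-values is that among these samples and may be technical.

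A miRNA guides a silencing complex to messenger RNAs through its seed, the bases near its 5′ end, and usually lowers their output. Intronic miRNAs are spliced out with, or transcribed beside, the messenger RNA of their host gene. Ppargc1b encodes a coactivator of mitochondrial and lipid synthesis genes, and its miR-378a has been tied in mice to fatty acid use and energy balance. The Pank genes encode pantothenate kinases, which control the first step of coenzyme A synthesis, and miR-103 and miR-107 have been tied in mouse liver and fat to insulin sensitivity. Messenger RNAs of the hosts were not measured here.

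Libraries held 1120035 to 1638036 counts in all. The liver label was checked against hepatocyte miRNAs: miR-122-5p, the liver-specific one, averaged 137217 ± 19237 CPM in HFrD and 164647 ± 6308 CPM in chow (SD, n = 4 each). CPM is the count per 1000000 counts of a library, here corrected by trimmed mean of M-values (TMM) factors unless library totals are named. Summed CPM of the 2 endothelial miR-126a arms did not overlap, with 5890 to 6863 CPM in HFrD and 7437 to 10079 CPM in chow. Over library totals they overlapped, with 6141 to 7733 CPM in HFrD and 7587 to 9014 CPM in chow. The rarer arm, miR-126a-5p, overlapped on both scales. Several other tested miRNAs also lay lower in HFrD with no overlap in TMM-scaled CPM but overlapped over library totals. The 4 myeloid markers summed to 10.3 to 18.9 CPM in HFrD and 7.0 to 22.2 CPM in chow. Sums of the hepatocyte, erythroid, stellate, biliary and muscle lists overlapped between diets as well. In bulk liver, fewer cells of a type and less miRNA per cell cannot be told apart, and the part of the endothelial difference in the results below was not tested. On the first principal component of all tested miRNAs, HFrD libraries lay below 0, the first 3 chow libraries at 0.516 to 1.69 and chow replicate 4 farther out, at 5.14. Without it the log2 fold changes given below were 0.28 for miR-378a-3p, 0.54 for miR-378a-5p, −0.05 for miR-103-3p and 0.33 for miR-107-3p, and none passed.

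The sequences of miR-103-3p and miR-107-3p are shown because they can hardly be told apart. In these RefSeq sequences (GRCm38.p6) the seed, bases 2 to 8, is in capitals.
miR-103-3p: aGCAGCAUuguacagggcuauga
miR-107-3p: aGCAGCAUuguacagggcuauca
Both are 23 bases long and share the seed and the first 21 bases. Counted from the 5′ end of miR-103-3p, the single difference is G22C. A read that ends before that base does not tell them apart, and no source used here gives the authors' rule for such reads, so the split between miR-103-3p and miR-107-3p is uncertain. No other sequence in the table had their 7-base seed.

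The same miR-103-3p comes from a pair of genes, so its count joins both. The hairpins are shown with the 3p arm in capitals.
Mir103-1: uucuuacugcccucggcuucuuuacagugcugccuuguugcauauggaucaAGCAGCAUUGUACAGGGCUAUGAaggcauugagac
Mir103-2: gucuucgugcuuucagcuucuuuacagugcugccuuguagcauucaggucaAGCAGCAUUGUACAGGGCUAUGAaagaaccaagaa
Mir107: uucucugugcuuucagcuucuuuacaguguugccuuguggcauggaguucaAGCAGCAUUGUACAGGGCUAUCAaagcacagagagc
Mir103-1 and Mir103-2 were identical at 69 of 86 aligned bases (80.2%), with no difference inside the 3p arm. Mir107 was identical to Mir103-2 at 73 aligned bases (83.9%) and to Mir103-1 at 70 (80.5%).

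Each of the 4 hairpins lies in an intron of its host, on the host's strand, in GENCODE M21 on GRCm38. Mir103-1 is at chr11:35782396-35782481 on the plus strand, in intron 5 of 6 of Pank3. Mir103-2 is at chr2:131288052-131288137 on the plus strand, in Pank2, and Mir107 is at chr19:34820687-34820773 on the minus strand, in Pank1. In the transcripts of Pank2 and Pank1 with the most introns, both also sit in intron 5 of 6. Thus the 3 Pank hairpins occupy the intron of the same number in 3 paralogous genes. Mir378a differs in place: at chr18:61397835-61397900 on the minus strand, it sits in intron 1 of Ppargc1b, 2531 bases from the annotated start of the gene. The distance from the host's start was 12912 bases for Mir103-1, 25557 for Mir103-2 and 58682 for Mir107.

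miR-103-3p was the most abundant of the 4 and ranked 23 among the 443 sequences by mean CPM of library totals. miR-378a-3p, the main arm of its hairpin, ranked 27, miR-107-3p ranked 63 and miR-378a-5p ranked 96. Together they held 0.269% ± 0.00651 of a library's counts in HFrD and 0.227% ± 0.0131 in chow (SD, n = 4 each). Over the 8 samples the TMM-scaled levels ran from 1181 to 1483 CPM for miR-103-3p, from 782 to 1171 CPM for miR-378a-3p, from 91.6 to 155 CPM for miR-107-3p and from 22.1 to 51.9 CPM for miR-378a-5p. On this scale no neighbours in this order overlapped. Over library totals the first pair did, since miR-378a-3p reached 1297 CPM in HFrD and miR-103-3p fell to 1158 CPM in chow. Levels of different miRNAs also carry the bias of small RNA libraries towards some sequences, so their order in the counts need not be their order in the tissue.

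The comparison of diets asks which miRNAs of the liver change under HFrD. Over all tested miRNAs, edgeR's quasi-likelihood test called 10 of 170 (5.88%) at an adjusted p under 0.05. None of the 4 miRNAs hosted by metabolic genes was among them. Without adjustment 22 of the 170 (12.9%) were higher in HFrD with p under 0.05, and miR-378a-3p, miR-378a-5p and miR-107-3p were 3 of these. DESeq2 called none of the 4 either, and limma on the authors' normalized score called miR-378a-3p and miR-107-3p among 14 (8.24%) that it called higher.

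miR-378a-3p, the arm taken as the guide of miR-378a, was counted 1798, 1076, 1864 and 1457 times in HFrD replicates 1 to 4 and 982, 1096, 1206 and 946 times in chow replicates 1 to 4. This was 1152, 921, 1171 and 1101 CPM in HFrD, against 782, 930, 938 and 842 CPM in chow. HFrD replicates 1, 3 and 4 lay above every chow sample, and HFrD replicate 2 lay among them. The mean was 1086 ± 114 CPM in HFrD and 873 ± 74.7 CPM in chow (SD, n = 4 each). The log2 fold change was 0.32 (SE 0.10, 95% interval 0.10 to 0.53), a 1.24-fold difference that missed the threshold (adjusted p = 0.0585, edgeR). It passed without HFrD replicate 2, the sample that lay among chow (log2 fold change 0.38, adjusted p = 0.0348, edgeR). It did not pass when any other single library was left out (adjusted p from 0.0627 to 0.219, edgeR).

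Its call depended on the scaling. Over library totals the 4 HFrD samples, at 1297, 961, 1138 and 1144 CPM, lay above the 4 chow samples, at 798, 896, 900 and 753 CPM. Such a separation with HFrD higher was seen for 23 of the 170 miRNAs (13.5%) over library totals and for 10 (5.88%) in TMM-scaled CPM. With library totals edgeR gave miR-378a-3p a log2 fold change of 0.44 (adjusted p = 0.0156) and called 17 miRNAs (10.0%) as higher. Over all 170 tested, the log2 fold change had a median of 0.13 with library totals and 0.01 with TMM factors. Relative to that median, miR-378a-3p stood at 0.31 with library totals and at 0.30 with TMM factors.

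miR-378a-5p, the other arm of the hairpin, was far rarer, with 81, 38, 73 and 50 counts in HFrD and 39, 26, 42 and 39 counts in chow. In CPM this was 51.9, 32.5, 45.9 and 37.8 in HFrD, against 31.1, 22.1, 32.7 and 34.7 in chow. As for the 3p arm, HFrD replicate 2 was the only HFrD sample not above every chow sample. Its log2 fold change of 0.49 (SE 0.21, 95% interval 0.05 to 0.93) did not pass (adjusted p = 0.157, edgeR). It was at 0.62 with library totals (adjusted p = 0.0591, edgeR), where its groups did not overlap. On that scale 23 of the 170 tested miRNAs (13.5%), this arm among them, were so separated with HFrD higher.

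**Figure D1:**
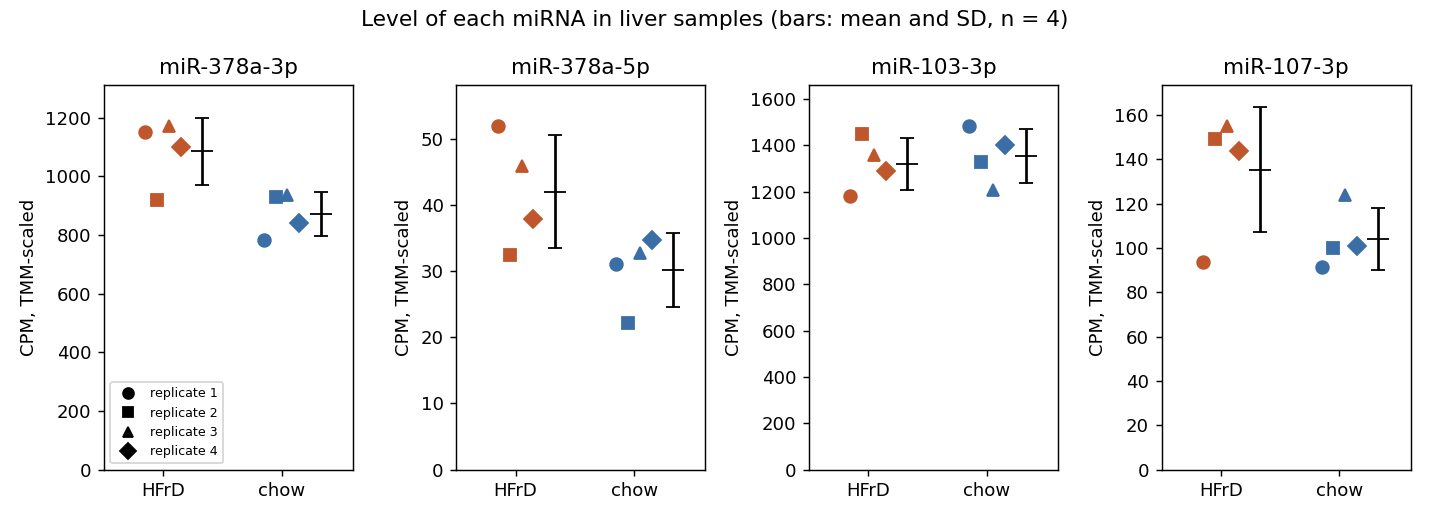
TMM-scaled CPM of the 4 miRNAs (y axes, from 0) in HFrD and chow livers, with a point per sample, a marker shape per replicate and the mean and SD at the right of each group. HFrD replicate 2 lies within the chow values for both miR-378a arms, and HFrD replicate 1 lies within them for miR-107-3p. The groups of miR-103-3p overlap, with an HFrD sample below every chow sample and a chow sample above every HFrD sample.

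The share of the hairpin's counts that fell on the 5p arm was 4.31%, 3.41%, 3.77% and 3.32% in HFrD and 3.82%, 2.32%, 3.37% and 3.96% in chow. Counting error was wide at this depth, with exact (Clopper-Pearson) 95% intervals from 3.44% to 5.33% for the highest share, 4.31%, and from 1.52% to 3.38% for the lowest, 2.32%. Such intervals cover counting error only, because reads that carry no molecular identifier may be copies of 1 molecule. The log2 ratio of 5p to 3p averaged −4.70 ± 0.17 in HFrD and −4.85 ± 0.36 in chow (SD, n = 4 each). The difference of 0.16 was within the spread between replicates (two-sided exact permutation p = 0.6, adjusted p = 0.6 over the 2 ratios tested). Its sign rested on chow replicate 2, without which it was −0.01. This ratio does not depend on library scaling.

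miR-103-3p, the product of Pank2 and Pank3 introns, was counted 1844, 1692, 2164 and 1706 times in HFrD and 1863, 1564, 1552 and 1576 times in chow. In CPM this was 1181, 1449, 1360 and 1289 in HFrD, against 1483, 1328, 1207 and 1402 in chow. The lowest HFrD sample lay below every chow sample, the highest chow sample lay above every HFrD sample, and the groups overlapped. The log2 fold change was −0.04 (SE 0.095, 95% interval −0.24 to 0.16, adjusted p = 0.801, edgeR). That interval holds changes of up to 0.24 down and 0.16 up on the log2 scale. The sign turned with library totals, where it was 0.08, below the median of 0.13 of all tested miRNAs.

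miR-107-3p, the product of a Pank1 intron, was counted 146, 174, 247 and 191 times in HFrD and 115, 118, 159 and 114 times in chow. In CPM this was 93.5, 149, 155 and 144 in HFrD, against 91.6, 100, 124 and 101 in chow. HFrD replicates 2, 3 and 4 lay above every chow sample, and HFrD replicate 1 lay above chow replicate 1 alone. The mean was 135 ± 28.4 CPM in HFrD and 104 ± 13.7 CPM in chow (SD, n = 4 each), a log2 fold change of 0.37 (SE 0.16, 95% interval 0.04 to 0.71) that did not pass (adjusted p = 0.157, edgeR). It passed without HFrD replicate 1 (0.54, adjusted p = 0.0132, edgeR) and with library totals (0.49, adjusted p = 0.0355, edgeR). It did not pass when any other single library was left out (adjusted p from 0.0693 to 0.342, edgeR). Relative to the median of all tested miRNAs it stood at 0.36 both with TMM factors and with library totals.

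The balance between the Pank miRNAs can be read within each sample. There were 12.6, 9.72, 8.76 and 8.93 counts of miR-103-3p for each count of miR-107-3p in HFrD, against 16.2, 13.3, 9.76 and 13.8 in chow. The ratio was highest in chow replicate 1 and lowest in HFrD replicate 3, and chow replicate 3, at 9.76, lay among the HFrD samples. As a share of both, miR-107-3p was at 9.24% ± 1.33 in HFrD and 7.22% ± 1.48 in chow (SD, n = 4 each). The log2 ratio of miR-103-3p to miR-107-3p averaged 3.30 ± 0.24 in HFrD and 3.70 ± 0.30 in chow. The difference of −0.40 did not pass (two-sided exact permutation p = 0.0571, adjusted p = 0.114 over the 2 ratios), where the smallest p that 4 against 4 samples can give is 0.0286.

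**Figure D2:**
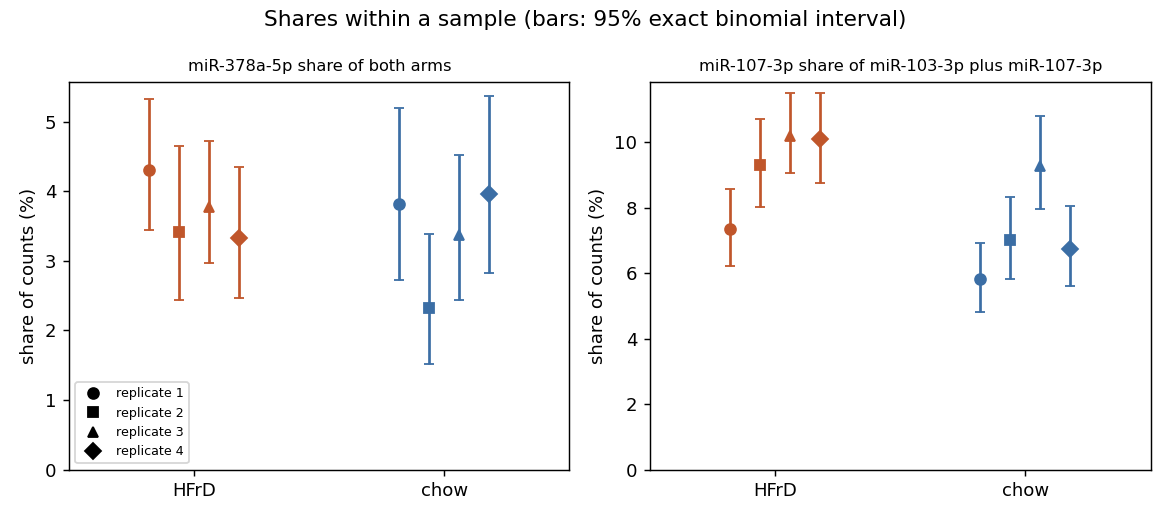
Share of counts in percent (y axes, from 0) by sample for the miR-378a-5p arm among both miR-378a arms and for miR-107-3p among miR-103-3p plus miR-107-3p, with 95% exact binomial intervals. The arm shares of HFrD and chow overlap, with HFrD replicate 1 above every chow sample and chow replicate 2 below every HFrD sample. For miR-107-3p chow replicate 3, at 9.29%, lies among HFrD samples at 7.34% to 10.2%.

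The 4 miRNAs did not share 1 pattern over the samples. HFrD replicate 1 had the highest miR-378a-5p of all samples, at 0.54 log2 units above that miRNA's own mean, and the lowest miR-103-3p, at −0.17. In the same library miR-107-3p stood at −0.32, while it stood at 0.29 to 0.40 in the other HFrD samples. HFrD replicate 2 was the reverse, with miR-378a-3p at −0.07, below its mean, and miR-107-3p at 0.34. HFrD replicate 1 also had the largest TMM factor, 1.127, against 0.9715 to 1.043 in the other HFrD libraries and 0.8943 to 1.02 in chow. The part of this factor in the values was not tested.

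**Figure D3:**
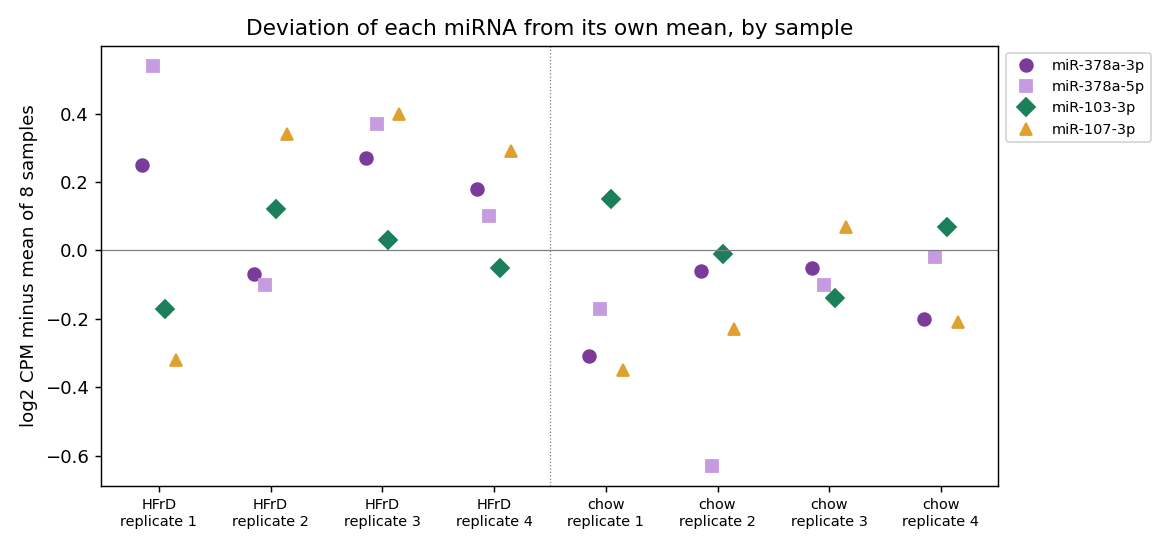
Log2 CPM of each miRNA minus its own mean over the 8 samples (y axis), by sample, with the 4 HFrD samples left of the dotted line and the 4 chow samples right of it. In HFrD replicate 1 both miR-378a arms lie above 0 and miR-103-3p and miR-107-3p lie below it, and in HFrD replicate 2 this is turned round.

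Likeness to other miRNAs was measured as the root mean square difference in these centred values over the 8 samples. For each, 160 other miRNAs with a mean of at least 10 CPM were compared. The root mean square of the miRNA's own centred values was 0.20 for miR-378a-3p, 0.33 for miR-378a-5p, 0.11 for miR-103-3p and 0.29 for miR-107-3p. The difference also depends on the spread of each miRNA, counting error included, so its ranks cannot separate a shared pattern from a like spread. The nearest to miR-378a-3p were miR-423-5p (0.12 log2 units), miR-532-5p (0.15) and let-7i-5p (0.15), with a median of 0.32 over all 160. Its own 5p arm came 35th, at 0.25. In the other direction miR-378a-3p was the second nearest to miR-378a-5p, between miR-191-5p (0.23) and miR-183-5p (0.25). miR-103-3p was nearest to let-7g-5p (0.08), miR-148a-5p (0.082) and miR-1a-3p (0.10). miR-107-3p was nearest to miR-25-3p (0.16), miR-101a-3p (0.18) and miR-148b-3p (0.19). miR-107-3p ranked 105 of 160 in likeness to miR-103-3p (0.31, median 0.25), and miR-103-3p ranked 41 of 160 in likeness to miR-107-3p (0.31, median 0.37).

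Close relatives of miR-378a were at the edge of detection. miR-378c differs from miR-378a-3p at 1 of 21 positions, the last, so a read that ends before it does not tell them apart. It was counted 3, 3, 6 and 5 times in HFrD and 7, 2, 4 and 3 times in chow. miR-378b was entered with 2, 3 and 3 counts in HFrD replicates 1, 3 and 4 and was blank in HFrD replicate 2 and in chow. Neither passed the filter on low counts, so neither was tested for a diet difference under the reported setting. Counts this low cannot show whether the diets differed. None of the 66 sequences predicted by the authors shared a seed with the 4 miRNAs or held their bases 3 to 16.

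A wider group of miRNAs carries the letters AGCAGC of miR-103-3p and miR-107-3p, shifted by a base. They are shown with these letters in capitals because the shift gives them a different seed.
miR-103-3p: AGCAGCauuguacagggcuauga
miR-107-3p: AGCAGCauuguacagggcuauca
miR-16-5p: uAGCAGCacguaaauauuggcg
miR-15b-5p: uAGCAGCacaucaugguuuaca
miR-195a-5p: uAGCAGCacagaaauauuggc
miR-322-5p: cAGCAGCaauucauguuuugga
miR-497a-5p: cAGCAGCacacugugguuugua
On the RNA strand, 9 of the 443 mature sequences (2.03%) held AGCAGC: at base 1 in 2, at base 2 in 6, and at base 16 in miR-191-5p. miR-103-3p outnumbered the rest, with 13961 counts over the 8 libraries, against 2881 for miR-191-5p, 1264 for miR-107-3p and 446 for miR-16-5p. Of the shifted miRNAs, 5 were tested and none passed, with a median log2 fold change of 0.11 against 0.01 over all tested. That median was −0.02 without HFrD replicate 1 or chow replicate 3. miR-16-5p, a brake on the cell cycle, averaged 34.6 ± 7.52 CPM in HFrD and 52.6 ± 8.98 CPM in chow (SD, n = 4 each), and its log2 fold change of −0.61 missed the threshold (SE 0.20, adjusted p = 0.0588, edgeR). It passed without HFrD replicate 2 (adjusted p = 0.0348, edgeR), without chow replicate 3 (0.0404) and with the replicate block (0.0464). miR-497a-5p was at −0.19 (SE 0.21) and miR-195a-5p at 0.11 (SE 0.24), both within their errors.

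Other miRNAs tied to the same metabolic functions were taken as lists. Of 22 tested miRNAs of sterol and lipid metabolism, 1 fell and 21 did not pass, with a median log2 fold change of 0.03, where edgeR called 6 of all 170 (3.53%) lower. The one that fell was miR-27b-3p, a regulator of lipid genes, at 6225 ± 127 CPM in HFrD and 8518 ± 1286 CPM in chow (SD, n = 4 each), with a log2 fold change of −0.45 (adjusted p = 0.0123, edgeR). Its call ended with upper quartile factors (adjusted p = 0.154, edgeR) and without chow replicate 2 (0.0713). The most abundant were miR-148a-3p, which targets the LDL receptor, at −0.14 (SE 0.091), miR-21a-5p at 0.02 (SE 0.12) and miR-122-5p at −0.26 (SE 0.097). Of these, miR-122-5p passed without HFrD replicate 1 (−0.34, adjusted p = 0.0132, edgeR). Of 19 tested miRNAs of insulin and glucose metabolism, 1 fell and 18 did not pass. Their median log2 fold change of 0.03 was 0.16 with library totals and ran from −0.06 to 0.04 without 1 library. Their summed level was 91985 to 96599 CPM in HFrD and 96796 to 102008 CPM in chow, barely apart, and over library totals the groups overlapped. Single miRNAs outside both lists, such as miR-100-5p and miR-340-5p, showed the same, and the sum was not tested. The one of the insulin list that fell was the endothelial miR-126a-3p, at −0.43 (SE 0.098, adjusted p = 0.0123, edgeR). Its call ended with upper quartile factors (adjusted p = 0.154, edgeR), without chow replicate 2 (0.0844) and without HFrD replicate 4 (0.0643). The most abundant of this list were let-7g-5p (−0.09, SE 0.080), let-7f-5p (−0.13, SE 0.081) and let-7i-5p (0.21, SE 0.082), of which let-7g-5p turned to 0.03 and let-7i-5p passed (0.33, adjusted p = 0.0219, edgeR) with library totals.

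Lying within a protein-coding gene was common. Of the 170 tested miRNAs, 69 had each of their annotated precursors inside a protein-coding gene on the same strand, the 4 described here among them. Of these 69, edgeR called 1 higher and 3 lower, with a median log2 fold change of 0.03. Over all 170 it called 4 higher and 6 lower (5.88% in all), with a median of 0.01. Of 85 miRNAs with at least 1 precursor outside such genes, 1 was called higher and 3 lower, with a median of −0.04. The difference between hosted and other miRNAs was not tested. The remaining 16 could not be placed in the annotation.

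**Figure D4:**
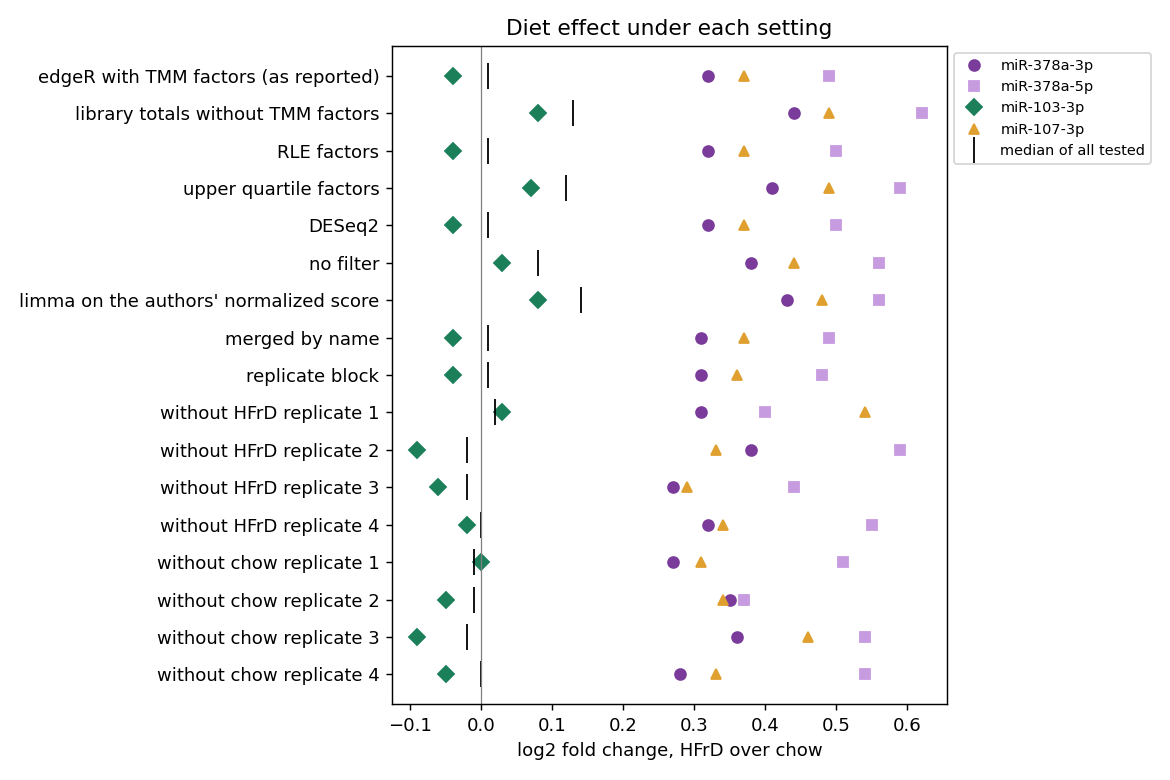
Log2 fold change, HFrD over chow (x axis), of the 4 miRNAs under the reported setting and 16 alternatives (y axis), with a black bar at the median of all tested miRNAs. miR-378a-3p, miR-378a-5p and miR-107-3p lie right of that median in each, between 0.27 and 0.62, and miR-103-3p lies between −0.09 and 0.08.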

How the data were processed

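The members and lists were chosen with earlier results of these data known. Per the file headers, the authors deposited raw tag counts per mature miRNA and normalized values, used here as a score: counts divided by a number constant within a library (4.214 to 6.187) and rounded. Per the submitters' processing notes, tools included cutadapt 1.9.2 and Novoalign 3.02.12 on mm10. The labels' protocols describe ribosomal RNA depletion and a stranded total RNA library, and no source used here names how small RNA was enriched. Values below 2 are blank (35.33% of cells after merging) and were read as 0. The 484 entries were merged by sequence into 443, 66 of them predicted by the authors. The miRNAs described filled 5 entries, since miR-103-3p has a pair.

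Diets were compared with edgeR 4.0.16 in R 4.3.3 (quasi-likelihood test, diet as the only term, TMM factors, filterByExpr at a minimum count of 10, Benjamini-Hochberg over all 170 tested). The fit was tested on simulated data with larger changes than those of the 4 miRNAs. That test does not show whether smaller changes would be called. SE is the log2 fold change over the root of F, and 95% intervals use the moderated degrees of freedom. Ratios used log2 of counts plus 0.5 and the exact two-sided permutation test over 70 assignments. Likeness used log2 CPM with prior count 2. Named miRNAs are the 4 described and their relatives, and per list those past the threshold and the 3 most abundant. Alternatives were library totals, RLE and upper quartile factors, DESeq2 1.42.0, no filter, limma 3.58.1 with a trend on log2 of the score plus 1, merging by name, the replicate block and leaving out each library. Host positions came from GENCODE M21 and sequences from RefSeq (GRCm38.p6), the assembly behind mm10. Python 3.11.15, pandas 2.3.3, scipy 1.17.1 and matplotlib 3.10.9 were used.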

Additional observations from a re-analysis of the deposited data

How the results depend on the processing

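The count of called miRNAs, 10, was 23 with library totals, 22 with no filter, 20 with limma on the authors' normalized score and 1 with upper quartile factors, and ran from 1 (without chow replicate 2) to 17 (without chow replicate 3) when a library was left out. It was 6 without HFrD replicate 4. miR-378a-3p passed with library totals (0.44), no filter (0.38) and the score (0.43), and ran from 0.27 to 0.38 without 1 library. miR-107-3p passed with library totals (0.49), no filter (0.44) and the score (0.48), and ran from 0.29 to 0.54 without 1 library. Over the 16 alternatives adjusted p ran from 0.0108 to 0.219 for miR-378a-3p, from 0.0132 to 0.342 for miR-107-3p, from 0.0591 to 0.414 for miR-378a-5p and from 0.550 to 0.974 for miR-103-3p. miR-103-3p changed sign with library totals (0.08), upper quartile factors (0.07), no filter (0.03) and the score (0.08), and ran from −0.09 to 0.03 without 1 library, at 0.03 without HFrD replicate 1 and 0.0039 without chow replicate 1. Of the list miRNAs named, signs turned for let-7g-5p with library totals and the score (0.03 each) and upper quartile factors (0.01), for miR-21a-5p without HFrD replicates 2 and 3 and chow replicate 3 (−0.09 to −0.01), and for miR-195a-5p without HFrD replicate 1 (−0.02). The insulin list's median was 0.16 with library totals and 0.15 with the score. The causes were not tested. The arm ratio ran from −0.01 (without chow replicate 2) to 0.25 and the miR-103-3p to miR-107-3p ratio from −0.54 to −0.29, with exact permutation p from 0.0571 to 0.171.

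The labels do not say that the replicate numbers mark pairs, and the numbers in the samples' column names do not all match them. Deviations of samples with the same replicate number correlated at 0.145, −0.0996, 0.0536 and 0.0118 across the tested miRNAs. Such correlations cannot settle whether samples were paired. With the replicate block edgeR called 15 miRNAs, and none of the 4 passed, with adjusted p of 0.0862 for miR-378a-3p. The exact sign-flip test over pairs gave 0.125 for the miR-103-3p to miR-107-3p ratio, the smallest p that 4 pairs allow, and 0.5 for the arm ratio.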

Other observations

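The ratio of miR-378a-3p to miR-103-3p counts, which does not depend on library scaling, was described after the data were seen and was not tested. It was 0.975, 0.636, 0.861 and 0.854 in HFrD, against 0.527, 0.701, 0.777 and 0.600 in chow. HFrD replicate 2 again lay among the chow samples, below chow replicates 2 and 3, and the other HFrD samples lay above every chow sample. The means were 0.832 ± 0.142 in HFrD and 0.651 ± 0.110 in chow (SD, n = 4 each).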
